A study of Mus musculus with 34 samples.

Results

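Oxidative phosphorylation (OXPHOS) is carried out by 5 protein complexes of the inner mitochondrial membrane, and most of their subunits are encoded in the nucleus. Genes for these subunits were taken by name from the annotation: protein-coding genes whose symbol starts with Ndufa, Ndufb, Ndufc, Ndufs, Ndufv, Uqcr, Cox4 to Cox8 or Atp5, with Cyc1 and Sdha, Sdhb, Sdhc and Sdhd, and without assembly factors and pseudogenes. The rule gave 86 of the 48795 counted genes, with 38 genes of complex I, 4 of complex II, 9 of complex III, 18 of complex IV and 17 of complex V. The rule itself uses no expression value, but this gene set was chosen with earlier results of these data known. The names take in Cox7a2l, a supercomplex factor, and Atp5s, a coupling factor, and they leave out Usmg5, an ATP synthase subunit that keeps an older symbol in this annotation.

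RNA was counted in neuron-enriched pellets of dorsal root ganglia (DRG, lumbar L4 to L6), where sensory neurons have their cell bodies. The left sciatic nerve was crushed in mice aged 8 to 12 weeks. After 3 days a library was made from the crushed (injured) and one from the uncrushed (naive) side of each of the 17 animals. The groups were 8 cKO injured, 8 cKO naive, 9 wt injured and 9 wt naive libraries. In the cKO mice (5 females, 3 males), labelled Adv-Cre+ and ATF3-fl_homo, both copies of Atf3 are floxed and Cre is driven by the sensory neuron promoter of advillin (Avil). The wt mice (6 females, 3 males) were mixed in genotype. All 6 females were Adv-Cre-, and 4 of them carried 1 floxed copy (ATF3-fl_het), while the 3 males were Adv-Cre+ with unmodified Atf3. All mice thus had a crush, and Cre was confounded with sex among the controls. ATF3, a stress-induced transcription factor, is strongly expressed in DRG neurons with a damaged axon, and the comparisons ask how the neurons respond to crush with and without it.

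Electrons enter the chain at complex I (from NADH) and complex II (from succinate), pass through complex III and are handed to oxygen at complex IV. Complexes I, III and IV pump protons, and complex V, the ATP synthase, uses the gradient to make ATP. Complex II has only nuclear-encoded subunits, while the other complexes also hold subunits made from mitochondrial DNA. Sensory neurons have very long axons and are known for a high demand for mitochondrial ATP.

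Library totals ran from 35732193 to 77632944 counts, and pan-neuronal markers summed to 11604 to 22568 CPM (counts scaled to library size by TMM) in every library. Atf3 averaged 264 ± 59.6 CPM in cKO injured, 119 ± 25.5 CPM in cKO naive, 364 ± 145 CPM in wt injured and 125 ± 30.8 CPM in wt naive libraries (SD), and a whole-gene count does not check the deletion of 1 exon. Avil, the Cre driver gene, was at 83.4 to 88.8 CPM in mouse cKO-131, against 432 to 555 CPM in the other Cre-positive mice. Mouse wt-150, labelled Cre-negative, had 499 to 517 CPM of Avil, against 792 to 1036 CPM in the other Cre-negative mice. Between 5.02% and 20.03% of a library's reads fell in 3 genes of the ribosomal RNA spacer. By this share the mice formed a low set of 6 (3 cKO, 3 wt) and a high set of 11, a division that overlaps with sex. Results are given with and without the mice that stand apart, and within the spacer sets, where this changes them.

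Most subunits were well detected in these libraries. Of the 86 genes, 74 averaged at least 10 CPM, 3 (Ndufb4, Cox7c and Atp5l) lay between 1 and 10 CPM and 9 were below 1 CPM. A pseudogene copy, Ndufb4c, counted 2.57 CPM beside 6.77 CPM for Ndufb4, so reads may be shared between these copies. The sum of the 86 genes took 4679 to 6240 CPM in cKO injured, 4642 to 6005 CPM in cKO naive, 4724 to 6051 CPM in wt injured and 4828 to 6191 CPM in wt naive libraries, so the 4 groups overlapped almost fully. Complex V held the largest part, with 2099 CPM on average over all libraries, followed by complex I with 1620 CPM and complex IV with 932 CPM. Complex III had 555 CPM and complex II 358 CPM.

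Levels per kilobase of exon (RPKM, the mean over 34 libraries) showed which subunits dominated. Cox8a, a small complex IV subunit, was highest with 188 RPKM, and Atp5b, the catalytic beta subunit of the ATP synthase, followed with 185 RPKM. Atp5a1, its alpha partner, had 171.9 RPKM. Among complex I genes Ndufa4 led with 79.5 RPKM, although its protein is now assigned to complex IV. In complex III Uqcr11 led with 71.7 RPKM, and no subunit of that complex was below 23.2 RPKM, the level of Uqcrb. The complex II genes ran from 13.5 RPKM for Sdhc to 47.4 RPKM for Sdha. The median gene of complexes I, II, III, IV and V had 23.1, 35.8, 34.3, 45.9 and 24.0 RPKM among the tested genes. The lowest values came from alternative isoforms and from Atp5l, at 0.427 RPKM, whose annotated exons add up to 6443 bases, so that this value understates a short transcript.

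**Figure D1:**
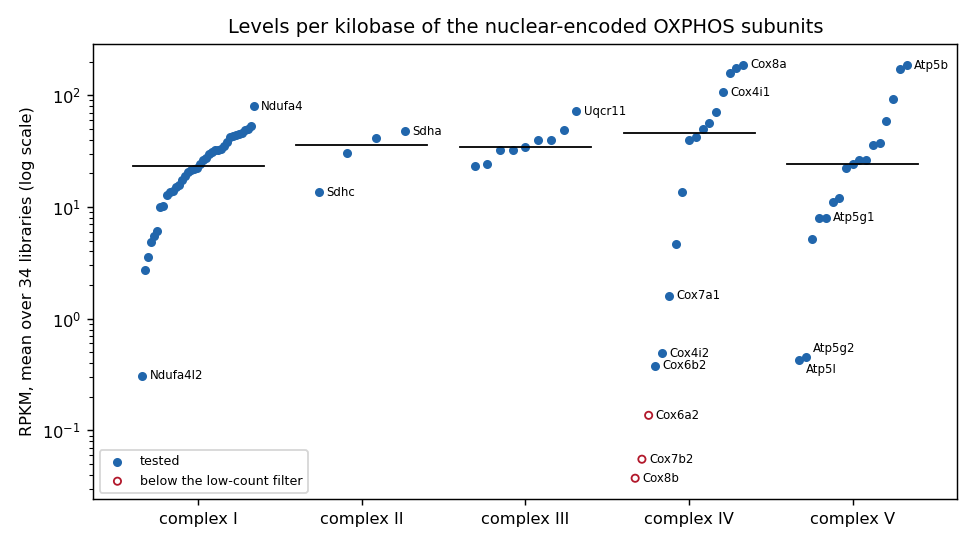
Mean RPKM over 34 libraries (log axis) of each subunit, 1 point per gene, by complex. Black lines are medians of tested genes, and open circles are genes below the low-count filter. Cox8c, with 1 count in all, is not drawn. Cox8a (188 RPKM) and Atp5b (185 RPKM) are at the top, and the tissue isoforms of complex IV form the low tail.

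Several complex IV subunits exist as a general and a tissue-restricted isoform, and the DRG libraries held almost only the general one. Cox4i1 made up 99.6% of the Cox4i family per length in cKO injured, 99.4% in cKO naive, 99.7% in wt injured and 99.4% in wt naive libraries. Cox6a1, Cox6b1, Cox7b and Cox8a each held at least 99.7% of their family in every group. The muscle and testis isoforms Cox6a2, Cox7b2, Cox8b and Cox8c had 179, 64, 28 and 1 counts over all 34 libraries and were the only members below the low-count filter. Cox7a1, known from heart and skeletal muscle, was the largest minor isoform of complex IV, with 1.72% of the Cox7a family in cKO injured, 2.49% in cKO naive, 2.14% in wt injured and 2.53% in wt naive libraries. Skeletal muscle markers summed to 1.85 to 3.51 CPM over all libraries, with 3 of 8 tested and 0 passing in the cKO or wt injury comparison. Ndufa4l2, a hypoxia-inducible relative of Ndufa4, held 0.456% of its family in cKO injured, 0.415% in cKO naive, 0.371% in wt injured and 0.320% in wt naive libraries. The membrane ring of the ATP synthase is built from subunit c, made by 3 genes with the same mature protein. Atp5g3 supplied 86.9% of that family per length in cKO injured, 87.4% in cKO naive, 87.9% in wt injured and 87.6% in wt naive libraries, and Atp5g1 nearly all the rest.

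The first comparison asks what the crush did to these genes, by setting the injured against the naive side in each genotype. In cKO mice 0 of the 82 tested subunits passed (edgeR quasi-likelihood test, adjusted p under 0.05 over all 19565 tested genes), where 3.19% of all genes passed (2.61% higher and 0.583% lower). At an unadjusted p under 0.05 there were 2, Ndufb3 and Cox7a1, and DESeq2 called 0. In wt mice 6 of 82 passed, or 7.32%, where 27.0% of all tested genes passed. The 2 that rose were Atp5d and Atp5l of the ATP synthase (14.3% of all genes rose), and the 4 that fell were Ndufb3 and Ndufs3 of complex I, Sdha of complex II and Cox4i2 of complex IV (12.7% of all genes fell). In bulk RNA, fewer cells of a type and less RNA per cell cannot be told apart.

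The changes were also small. The median log2 fold change over the 82 subunits was -0.04 in cKO and -0.02 in wt mice, against 0.02 over all tested genes in each. The 95% interval of the fold change lay within 1.5-fold (log2 0.58) in either direction for 77 subunits in cKO and 78 in wt mice. The exceptions were the rare isoforms Cox4i2, Cox6b2, Cox7a1 and Ndufa4l2 in both genotypes, and Atp5g2 in cKO mice. Over all tested genes the share of such narrow intervals was 66.4% in cKO and 59.9% in wt mice. These shares also depend on precision. The median standard error was 0.08 for the subunits in both genotypes, and over all tested genes 0.13 in cKO and 0.12 in wt mice.

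**Figure D2:**
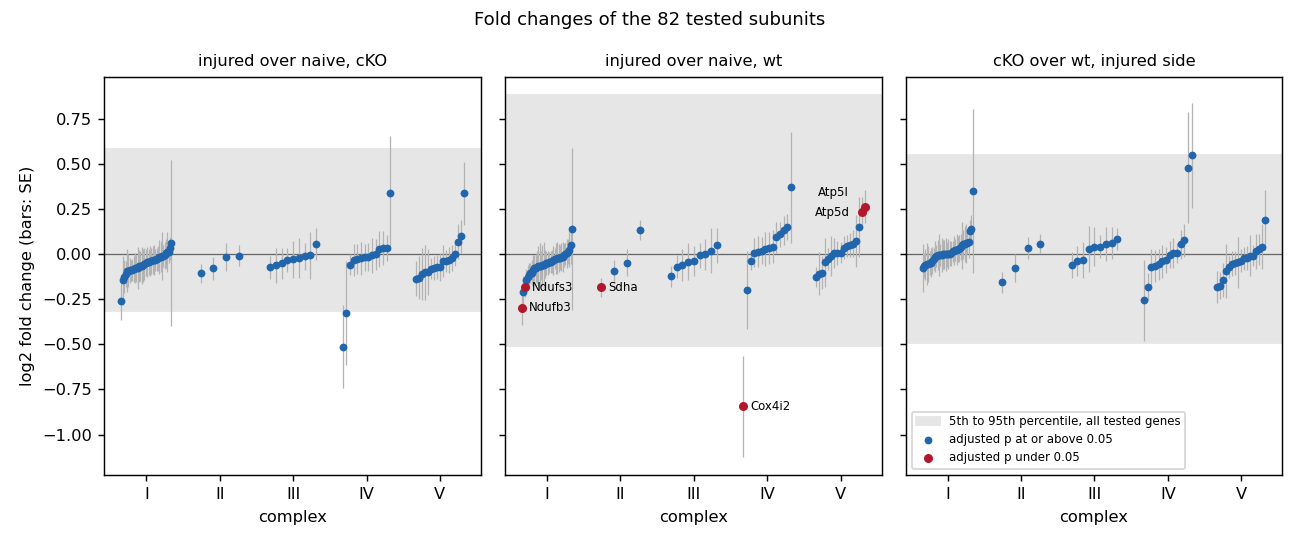
Log2 fold changes with standard errors of the 82 tested subunits, by complex and ordered by size within it, for injured over naive in cKO mice (left) and in wt mice (middle), and for cKO over wt on the injured side (right). Grey bands span the 5th to 95th percentile of all tested genes, and red points passed. Most subunits lie close to 0, and 6 passed, all in the wt comparison.

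Because each mouse gave both libraries, the mouse was also fitted as a block, which moved the counts. With the block 1 of 82 passed in cKO (8.40% of all genes, 4.77% higher and 3.62% lower) and 15 of 82 in wt mice (40.9% of all genes). The cKO call was Ndufb3, at -0.27 ± 0.08 with adjusted p = 0.0471 (edgeR with the block). Without mouse cKO-131 the single cKO call with the block was Sdha instead (-0.12, adjusted p = 0.0381, edgeR). Without mouse wt-150 no subunit passed in cKO mice with the block. The 15 wt calls held all 6 above. The others were Cox5a and Sdhb, which rose, and Ndufb8, Ndufc2, Ndufs1, Ndufv1, Ndufv3, Uqcrc2 and Atp5a1, which fell. None of these 9 was larger than the change of Ndufc2, -0.21 ± 0.05 on the log2 scale. Of the 15, 4 rose (20.8% of all genes) and 11 fell (20.1% of all genes). Complex I held 7 of the 11, out of 38 tested genes, a share near that of all genes in this fit. In a fit added after seeing the data, with the block and a length-trend offset together, these 7 fell again. Ndufa1, Ndufa2, Ndufa8, Ndufa11, Ndufb6, Ndufb9, Ndufb11, Ndufs5, Ndufs6 and Ndufs8 of complex I fell there too. The share of all genes in that fit is not given here.

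Complex I takes electrons from NADH through a peripheral arm of core subunits and pumps protons in a membrane arm that is wrapped in accessory subunits. Its genes leaned lower on the injured side in both genotypes. Negative log2 fold changes numbered 33 of 38 in cKO and 32 of 38 in wt mice, with medians of -0.05 in each. In cKO mice the lean was not particular to complex I. There 4 of 4 genes were negative in complex II, 8 of 9 in III, 9 of 14 in IV and 13 of 17 in V, with a complex V median of -0.07. Of all 82 subunits, 67 were negative in cKO and 51 in wt mice. Of all 19565 tested genes, 8915 and 9096 were negative. These are signs without a test. In the high-share mice complex I showed no lean in cKO (19 of 38 negative) and a weaker one in wt mice (27 of 38). In the low-share mice 36 of 38 were negative in both genotypes. Of the 7 core subunits, 0 passed in cKO mice, where 3.19% of all genes passed. In wt mice Ndufs3 alone fell without the block (12.7% of all genes fell). With the block Ndufs1, Ndufs3 and Ndufv1 fell (20.1% of all genes fell).

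Ndufb3 (ENSMUSG00000026032, chromosome 1, 58586384 to 58595964), an accessory subunit of the membrane arm, had 18.0, 20.9 and 27.2 CPM (lowest, median, highest) in cKO injured and 21.7, 26.7 and 29.4 CPM in cKO naive libraries. It had 12.9, 21.4 and 27.2 CPM in wt injured and 22.2, 25.3 and 31.0 CPM in wt naive libraries. The injured side was lower in 7 of 8 cKO mice and in 8 of 9 wt mice, and the 2 sides overlapped in both genotypes. Its log2 fold change was -0.26 ± 0.10 in cKO mice (edgeR, adjusted p = 0.217) and -0.30 ± 0.10 in wt mice (adjusted p = 0.0224). The difference between these effects, cKO minus wt, was 0.03 ± 0.14 (adjusted p = 0.989, edgeR), with a 95% interval from -0.26 to 0.32.

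Ndufs3 (ENSMUSG00000005510, chromosome 2, 90894634 to 90904827), a core subunit of the peripheral arm, had 19.0, 21.5 and 24.4 CPM in cKO injured and 18.6, 23.0 and 25.8 CPM in cKO naive libraries. It had 18.0, 20.8 and 22.3 CPM in wt injured and 20.5, 24.5 and 25.4 CPM in wt naive libraries. The sides overlapped in both genotypes, and the injured side was lower in 5 of 8 cKO and 8 of 9 wt mice. The log2 fold change was -0.09 ± 0.06 in cKO mice (edgeR, adjusted p = 0.620) and -0.18 ± 0.06 in wt mice (adjusted p = 0.0196). Its exons overlap Kbtbd4 on the other strand, which had 9.04 CPM on average and a log2 fold change of -0.12 ± 0.05 in wt mice (edgeR, adjusted p = 0.0815). The strand setting of the counting is not recorded in any source at hand, and without strand the reads of both genes cannot be told apart.

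Complex II, or succinate dehydrogenase, also works in the TCA cycle, and its 4 genes did not move as one. Sdha (ENSMUSG00000021577, chromosome 13, 74322254 to 74350280), the flavoprotein that oxidises succinate, had 165.0, 191 and 208 CPM in cKO injured and 165, 211 and 225 CPM in cKO naive libraries. It had 160.4, 186 and 201 CPM in wt injured and 178, 213 and 222 CPM in wt naive libraries. The injured side was lower in 7 of 8 cKO mice and in 9 of 9 wt mice, though the groups overlapped. Sdha had the lowest p of all subunits in wt mice. Its log2 fold change was -0.11 ± 0.05 in cKO (edgeR, adjusted p = 0.411) and -0.18 ± 0.05 in wt mice (adjusted p = 0.00721).

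Sdhb, the iron-sulphur subunit that takes electrons from Sdha, had 59.0, 65.6 and 73.3 CPM in cKO injured and 56.2, 67.05 and 70.4 CPM in cKO naive libraries. It had 60.2, 73.0 and 81.8 CPM in wt injured and 57.5, 69.5 and 72.2 CPM in wt naive libraries. The injured side was the higher one in 2 of 8 cKO mice and in 9 of 9 wt mice. The log2 fold change was -0.01 ± 0.06 in cKO (edgeR, adjusted p = 0.985) and 0.13 ± 0.06 in wt mice (adjusted p = 0.0690, and 0.0102 with the block). The difference between the genotypes' effects, -0.14 ± 0.08, did not pass (edgeR, adjusted p = 0.501, and 0.142 with the block). The membrane anchors Sdhc and Sdhd had log2 fold changes of -0.02 ± 0.08 and -0.08 ± 0.06 in cKO mice, and of -0.05 ± 0.07 and -0.09 ± 0.06 in wt mice, and did not pass with or without the block.

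**Figure D3:**
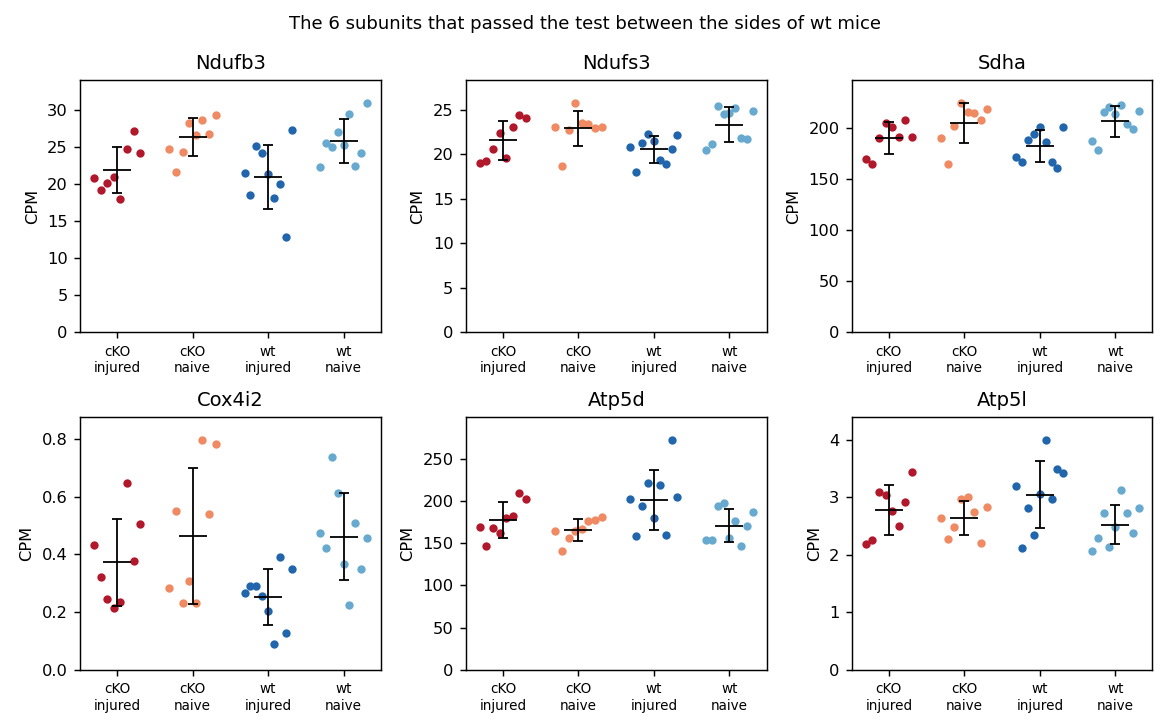
CPM of the 6 subunits that passed between the sides of wt mice, 1 point per library, with mean and SD, in cKO injured (n = 8), cKO naive (n = 8), wt injured (n = 9) and wt naive (n = 9) libraries. Axes start at 0. Injured and naive libraries overlap for each of the 6 genes.

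Complex III passes electrons from ubiquinol to cytochrome c, and none of its 9 genes passed in either genotype without the block. Uqcrc2, a core subunit, had the lowest p, with -0.07 ± 0.06 in cKO mice (edgeR, adjusted p = 0.740) and -0.12 ± 0.06 in wt mice (adjusted p = 0.136, and 0.0247 with the block). Next came Uqcrh, the hinge protein, in cKO mice (-0.06 ± 0.10, adjusted p = 0.892, edgeR) and Uqcrfs1, the Rieske iron-sulphur protein, in wt mice (-0.07 ± 0.06, adjusted p = 0.488).

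Complex IV, cytochrome c oxidase, contributed the largest fold change of all subunits, from a gene near the detection floor. Cox4i2 (ENSMUSG00000009876, chromosome 2, 152754173 to 152765037), the isoform of subunit IV known to be oxygen-responsive, had 0.214, 0.348 and 0.647 CPM in cKO injured and 0.231, 0.424 and 0.796 CPM in cKO naive libraries. It had 0.0878, 0.265 and 0.390 CPM in wt injured and 0.223, 0.457 and 0.738 CPM in wt naive libraries. These values rest on 171, 213, 135 and 229 counts in the groups as listed, and the injured side was lower in 5 of 8 cKO and 9 of 9 wt mice. The log2 fold change was -0.33 ± 0.29 in cKO (edgeR, adjusted p = 0.727) and -0.84 ± 0.28 in wt mice (adjusted p = 0.0227). Without mouse wt-150 it was -0.79 with adjusted p = 0.0558 (edgeR). The difference between the effects was 0.52 ± 0.40 (adjusted p = 0.720, edgeR), with an interval from -0.30 to 1.33. Pericytes and smooth muscle are known sources of Cox4i2. Their markers summed to 81.2 to 185.3 CPM in cKO injured, 93.8 to 192.3 CPM in cKO naive, 88.9 to 217.2 CPM in wt injured and 89.6 to 183.2 CPM in wt naive libraries. None of the 10 tested passed in either genotype, and 1 fell in wt mice with the block. Their part in the Cox4i2 value was not tested.

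Cox5a, a subunit on the matrix side of the complex, had 65.1, 89.0 and 100.8 CPM in cKO injured and 65.5, 85.8 and 99.7 CPM in cKO naive libraries. It had 72.8, 95.8 and 114.6 CPM in wt injured and 73.1, 87.7 and 99.4 CPM in wt naive libraries, with wide overlap in each genotype. The log2 fold change was -0.02 ± 0.08 in cKO (edgeR, adjusted p = 0.971) and 0.15 ± 0.07 in wt mice (adjusted p = 0.127, and 0.0129 with the block). Cox7a1 had -0.51 ± 0.23 in cKO (edgeR, adjusted p = 0.306) and -0.20 ± 0.22 in wt mice (adjusted p = 0.566), on levels below 1.5 CPM in every library. The main isoform Cox4i1 had -0.01 ± 0.10 in cKO and 0.04 ± 0.09 in wt mice. Cox6b2 had 0.34 ± 0.31 in cKO and 0.37 ± 0.31 in wt mice, and Ndufa4l2 0.06 ± 0.46 and 0.14 ± 0.45, both too imprecise to set a direction.

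In complex V the 2 genes that rose in wt mice encode parts of the central stalk and the membrane sector. Atp5d (ENSMUSG00000003072, chromosome 10, 80138632 to 80145818), the delta subunit of the rotating central stalk, had 146.3, 174 and 209.7 CPM in cKO injured and 140.7, 166 and 181 CPM in cKO naive libraries. It had 159, 203 and 272 CPM in wt injured and 147, 171 and 198 CPM in wt naive libraries. The injured side was higher in 7 of 8 cKO and 8 of 9 wt mice. The log2 fold change was 0.10 ± 0.09 in cKO (edgeR, adjusted p = 0.738) and 0.24 ± 0.08 in wt mice (adjusted p = 0.0367). Without mouse wt-139 the wt value was 0.22 with adjusted p = 0.0903 (edgeR), and median-ratio scaling gave 0.22 with adjusted p = 0.0559. It also missed the threshold with no low-count filter (0.21, adjusted p = 0.0757, edgeR) and with the length-trend offset (0.21, adjusted p = 0.0558). Its exons overlap Cbarp on the other strand, which had 174 CPM on average and fell in wt mice by 0.36 on the log2 scale (edgeR, adjusted p = 0.00419), opposite to Atp5d.

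Atp5l (ENSMUSG00000038717, chromosome 9, 44912557 to 44920742), subunit g of the membrane sector, had 2.18, 2.84 and 3.45 CPM in cKO injured and 2.202, 2.69 and 3.00 CPM in cKO naive libraries. It had 2.12, 3.05 and 4.00 CPM in wt injured and 2.07, 2.48 and 3.12 CPM in wt naive libraries. The log2 fold change was 0.07 ± 0.10 in cKO (edgeR, adjusted p = 0.868) and 0.26 ± 0.09 in wt mice (adjusted p = 0.0298), and without mouse wt-139 it was 0.22 with adjusted p = 0.103 (edgeR). With no low-count filter it was 0.24 with adjusted p = 0.0820 (edgeR). A pseudogene copy, Atp5l2-ps, counted 2.07 CPM beside 2.75 CPM for Atp5l, so reads may be shared between copies and the value is uncertain. An unnamed gene on the other strand also overlaps its exons. The catalytic subunit alpha, Atp5a1, had -0.08 ± 0.06 in cKO (edgeR, adjusted p = 0.637) and -0.12 ± 0.06 in wt mice (adjusted p = 0.0952, and 0.00167 with the block), and it was lower on the injured side in 9 of 9 wt mice. Atp5g2, the rarest gene for subunit c, was higher on the injured side in 8 of 8 cKO mice (0.34 ± 0.17, adjusted p = 0.407, edgeR) and in 6 of 9 wt mice (0.15 ± 0.16, adjusted p = 0.557).

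Summed per complex, the injured side stayed within a narrow range of the naive side of the same mouse. The log2 ratio of the complex I sum averaged -0.06 ± 0.09 in cKO and -0.07 ± 0.09 in wt mice (SD, n = 8 and 9), and was negative in 6 of 8 and 8 of 9. For complex II it was -0.07 ± 0.06 in cKO and -0.09 ± 0.07 in wt mice, negative in 7 of 8 and 8 of 9. The other complexes averaged between -0.04 and 0.05 in both genotypes. Mouse wt-139 stood apart from the other wt mice, with positive ratios for every complex. Its ratios were 0.15 for complex I, 0.35 for complex IV and 0.16 for complex V, and in other wt mice the highest were -0.03, 0.09 and 0.09. Mice with a low spacer share had lower ratios of the whole nuclear sum (-0.08 ± 0.06, n = 6) than mice with a high share (-0.00 ± 0.08, n = 11). The set moved with sex, and its part in the result was not tested: males averaged -0.08 ± 0.05 (n = 6) and females -0.01 ± 0.09 (n = 11).

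**Figure D4:**
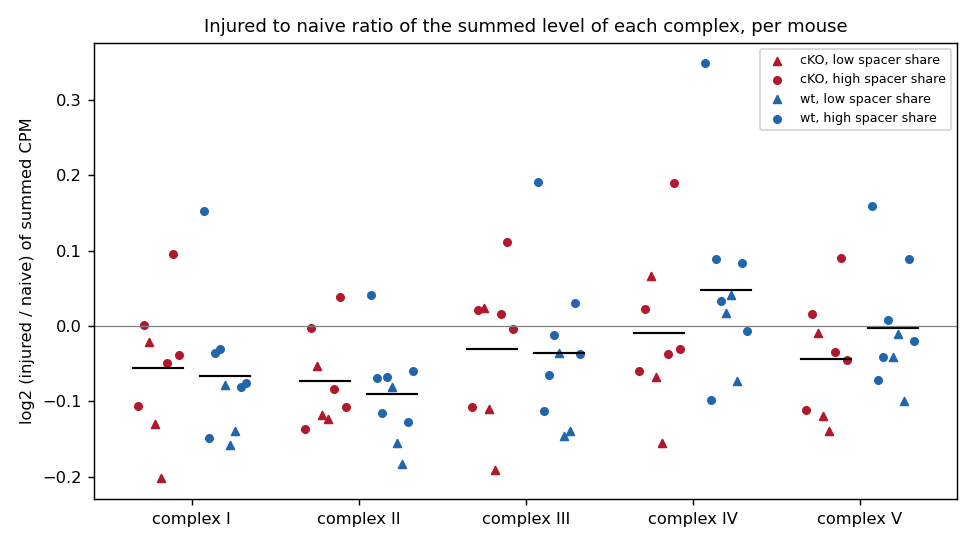
Log2 ratio of injured to naive summed CPM per complex, 1 point per mouse, cKO left of wt, with means as black lines. Triangles mark mice with a low and circles mice with a high ribosomal RNA spacer share. Ratios stay between -0.20 and 0.35, and the highest wt point of each complex is mouse wt-139.

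The second comparison asks whether loss of ATF3 changes the levels of these genes on either side. On the injured side 0 of 82 subunits passed between cKO and wt mice (edgeR), where 11.1% of all tested genes passed (3.57% higher and 7.55% lower in cKO), and 4 had an unadjusted p under 0.05. These were Sdhb, Cox5a, Atp5g3 and Atp5d, each lower in cKO. Sdhb had -0.16 ± 0.06 (edgeR, adjusted p = 0.0749) and Cox5a -0.18 ± 0.07 (adjusted p = 0.131). Atp5g3, the main subunit c gene, had -0.17 ± 0.08 (edgeR, adjusted p = 0.149) and Atp5d -0.18 ± 0.09 (adjusted p = 0.200). The members with lowest p in the other complexes were Ndufv3 (0.13 ± 0.06) and Ndufb5 (0.14 ± 0.07) of complex I and Uqcrc2 (0.08 ± 0.06) of complex III. With an offset for a trend in gene length, Sdhb passed (-0.16, adjusted p = 0.0483, edgeR). The median over the 82 subunits was -0.00, against 0.02 over all tested genes. Of the 82 intervals, 78 lay within 1.5-fold, against 64.2% over all tested genes, with median standard errors of 0.08 and 0.12.

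On the naive side 0 of 82 passed between cKO and wt mice, as for all tested genes (0.00%), and 0 had an unadjusted p under 0.05. DESeq2 also called 0 of the subunits. The largest log2 difference belonged to the rare isoform Cox6b2, at 0.51 ± 0.31. The subunits with the lowest p in complexes I, II, III, IV and V were Ndufb5 (0.07 ± 0.07), Sdhc (-0.11 ± 0.08), Uqcrc1 (-0.06 ± 0.07), Cox7c (0.14 ± 0.08) and Atp5j (0.09 ± 0.06). The intervals of 79 of 82 subunits lay within 1.5-fold, against 72.6% over all tested genes, with median standard errors of 0.08 and 0.12.

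The third comparison tests whether the crush effect itself differed between genotypes. The difference of effects, cKO minus wt, passed for 0 of 82 subunits (edgeR, where 2.84% of all genes passed, 0.695% higher and 2.15% lower) and for 0 with the block (7.53% of all genes, 3.25% higher and 4.29% lower). At an unadjusted p under 0.05 there were 0 without the block and 5 with it, and DESeq2 called 0. The 5 were Ndufv3, Sdhb, Cox4i2, Cox5a and Atp5g3. Without the block the lowest p values belonged to Ndufv3, a small accessory subunit of the NADH-binding module (0.17 ± 0.09, adjusted p = 0.427, edgeR), and to Sdhb, given above. In complex III Uqcrc2 had 0.05 ± 0.09, in complex IV Cox5a had -0.17 ± 0.11 and in complex V Atp5l had -0.20 ± 0.13. Of complexes IV and V, 12 of 14 and 14 of 17 genes had a negative difference, and without mouse wt-139 the median difference of all members was 0.01 instead of -0.02. The wt and cKO injury effects share no libraries, and 6 calls in wt against 0 in cKO mice do not show that the effects differ, because the tests of the difference did not pass.

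The 13 subunits made from mitochondrial DNA varied several-fold between libraries within each group. Their sum ran from 1884 to 5983 CPM in cKO injured, 1659 to 5998 CPM in cKO naive, 1842 to 6581 CPM in wt injured and 1765 to 6353 CPM in wt naive libraries. The highest library was 3.18-fold to 3.62-fold above the lowest within each group, while the nuclear sum varied by 1.28-fold to 1.33-fold. None of the 13 passed in any of the comparisons (edgeR), with standard errors of 0.22 or more on the log2 scale. The level moved with the ribosomal spacer share, whose part was not tested: low-share libraries held 3758 to 6581 CPM and high-share libraries 1659 to 3900 CPM of mitochondrial messages, with a small overlap. The nuclear sum was 4951 to 5983 CPM in low-share and 4642 to 6240 CPM in high-share libraries.

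**Figure D5:**
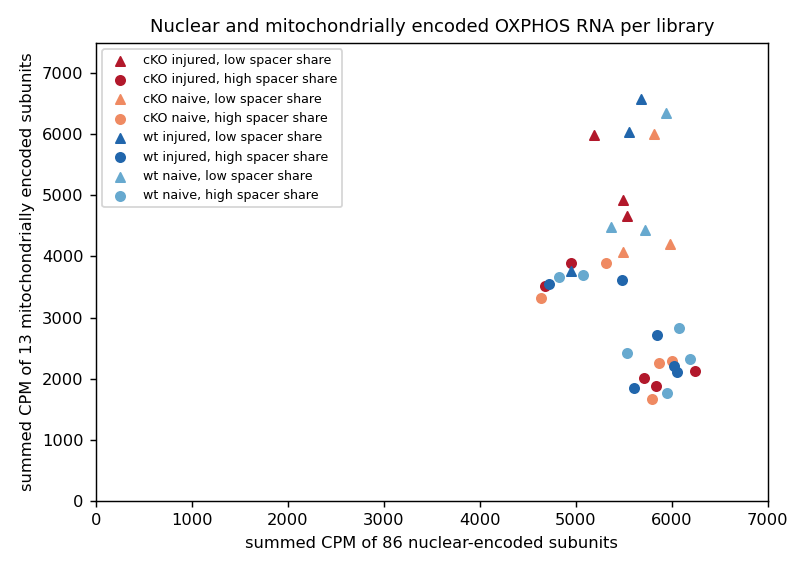
Summed CPM of the 86 nuclear-encoded subunits (x axis) against the 13 mitochondrially encoded ones (y axis), 1 point per library, both axes from 0. Triangles are libraries of low and circles of high ribosomal RNA spacer share. The nuclear sums stay between 4642 and 6240 CPM while the mitochondrial sums spread from 1659 to 6581 CPM, mostly higher in the low-share libraries.

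Genes that assemble, feed and serve the chain were described as separate lists. Of 50 tested assembly factors, 0 rose and 0 fell in cKO (3.19% of all genes passed). In wt mice 5 rose and 8 fell (27.0% of all genes passed). Sdhaf1, which helps mature Sdhb, rose by 0.39 ± 0.08 in wt mice (edgeR, adjusted p = 0.00039), and Bcs1l, which inserts the Rieske protein into complex III, fell by 0.30 ± 0.07 (adjusted p = 0.00107). Of 10 tested carriers and energy-transfer genes, 0 passed in cKO mice, and in wt mice 2 rose and 3 fell. Slc25a3, the phosphate carrier, rose by 0.20 ± 0.05 (edgeR, adjusted p = 0.00535), and Ckmt1, mitochondrial creatine kinase, fell by 0.35 ± 0.11 (adjusted p = 0.0126). Of 9 cytochrome c and electron-entry genes, 0 passed in cKO, and Etfa and Suox fell in wt mice.

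Upstream of the chain, 0 of 21 TCA cycle and pyruvate-entry genes passed in cKO mice. In wt mice 1 of them rose and 1 fell. The gene that rose was Mpc1, of the mitochondrial pyruvate carrier (0.39 ± 0.09, edgeR, adjusted p = 0.00133). Of 25 glycolysis genes 2 rose in cKO mice, Slc2a3, the neuronal glucose transporter, and Pfkfb3. In wt mice 6 rose and 5 fell: Slc2a1, another glucose transporter, rose by 1.02 ± 0.17 (edgeR, adjusted p = 2.06e-05), while Pdk2, which inhibits pyruvate dehydrogenase, fell by 0.56 ± 0.10 (adjusted p = 4.34e-05). Of 11 hypoxia targets 0 passed in cKO mice, and in wt mice Slc2a1 rose and 3 fell, Egln3, Pdk1 and Vegfa. Of 19 regulators of mitochondrial biogenesis 0 passed in cKO mice, and in wt mice Pprc1 and Gabpb1 rose and Ppargc1b fell. Of 78 mitochondrial ribosomal protein genes 0 passed in cKO, and 5 rose and 2 fell in wt mice. The shares can be read against all tested genes, of which 3.19% passed in cKO and 27.0% in wt mice. Between cKO and wt mice on the injured side, 11.1% of all genes passed (edgeR, 3.57% higher and 7.55% lower in cKO). Of the 10 carriers and energy-transfer genes, 1 was higher and 4 were lower in cKO. Of 25 glycolysis genes 2 were higher and 2 lower. The assembly, TCA and biogenesis lists each had 1 higher and 1 lower, and 1 hypoxia target was higher. In the electron-entry and mitochondrial ribosomal lists 0 passed. For the difference of effects between genotypes, 0 genes of these lists passed (edgeR, 2.84% of all genes). With the block (7.53% of all genes), 1 assembly factor was higher and 3 lower, and 3 glycolysis genes were higher and 2 lower. Then 1 TCA and 1 hypoxia gene were higher, and 1 carrier and 1 mitochondrial ribosomal gene lower. Calls in wt against 0 in cKO mice alone do not show that effects differ.

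The crush and the cell mixture were visible in other lists. Of all tested genes, 2.61% rose and 0.583% fell in cKO mice, and 14.3% rose and 12.7% fell in wt mice. Of 8 regeneration genes 5 rose in cKO and 8 in wt mice. Macrophage markers rose for 0 of 14 in cKO and 11 of 14 in wt mice, and summed to 34.9 to 195.2 CPM in cKO injured, 27.2 to 105.4 CPM in cKO naive, 37.6 to 145.0 CPM in wt injured and 7.40 to 67.1 CPM in wt naive libraries. Nociceptor markers fell for 1 of 13 in cKO and 7 of 13 in wt mice, and 0 and 2 rose. Mechanoreceptor and proprioceptor markers fell for 2 of 13 in cKO and 7 of 13 in wt mice, and 1 rose in each. On the injured side 6 of 8 regeneration genes, 5 of 14 macrophage, 2 of 13 nociceptor and 2 of 16 pan-neuronal markers were lower in cKO than in wt mice (edgeR). There 2 of 13 mechanoreceptor and proprioceptor markers were higher (7.55% of all genes lower, 3.57% higher). For the difference of effects, cKO minus wt, 3 regeneration genes, 2 macrophage markers and 1 nociceptor marker were lower (edgeR, 2.15% of all genes). So were 1 pan-neuronal and 1 satellite glia marker. In the same test 1 mechanoreceptor and proprioceptor marker was higher (0.695% of all genes). The part of these shifts in the OXPHOS values was not tested.

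ATF3 binds the palindrome TGACGTCA (the CRE/ATF element), and several OXPHOS promoters are known to be driven by NRF1 and by GABP. In the 250 bases upstream of the start of 69 subunit genes with a RefSeq promoter entry, either strand, 4 held TGACGTCA (5.80%, against 1.77% of all promoters and 2.201% of those of coding genes). The NRF1 palindrome, searched as an exact match, stood in 4: Atp5g2, Atp5k, Cox6a1 and Ndufa11 (5.80%, against 0.877% and 1.21%), and the GABP letters ACTTCCGG in 3 (4.35%, against 3.23% and 4.26%). The AP-1 letters TGANTCA stood in 6 (8.70%, against 7.82% and 7.19%) and the YY1 motif in 0. A match is a description and not a shown site. None of the genes with any of these motifs passed in any comparison, with or without the block, while Ndufa11, Uqcr11 and Uqcrfs1 fell in wt mice with the block and a length-trend offset together. Of the 6 subunits that passed in wt mice, 5 had a promoter entry. The 4 genes with the CRE/ATF palindrome are shown because ATF3 is the factor removed, and it ends 59, 6, 21 and 150 bases before the RefSeq start of Ndufa10, Ndufb2, Uqcrfs1 and Ndufa11. The GENCODE genes of Ndufa10 and Uqcrfs1 start farther upstream, at 92473860 and 30545362 on the minus strand, so in that annotation their palindromes lie inside the gene. Sequences are from RefSeq on GRCm38.p6, 5′ to 3′ on the gene's strand, with the motif in capitals. They lie at chr1:92473788-92473855 (minus), chr6:39592521-39592564 (plus), chr13:30545317-30545375 (minus) and chr17:56717574-56717641 (plus).
Ndufa10: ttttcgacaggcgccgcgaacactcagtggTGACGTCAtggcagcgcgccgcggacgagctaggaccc
Ndufb2: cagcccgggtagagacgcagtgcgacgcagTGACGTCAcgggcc
Uqcrfs1: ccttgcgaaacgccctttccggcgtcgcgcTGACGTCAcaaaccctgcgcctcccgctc
Ndufa11: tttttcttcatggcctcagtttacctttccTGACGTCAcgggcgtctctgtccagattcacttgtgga

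These 4 genes did not pass between cKO and wt mice on the injured side, with log2 differences of -0.01 ± 0.06 for Ndufa10, 0.03 ± 0.06 for Ndufb2, 0.04 ± 0.07 for Uqcrfs1 and -0.00 ± 0.09 for Ndufa11. Ndufa11, an accessory subunit of the membrane arm of complex I, also holds the NRF1 palindrome, 50 bases before its start.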

How the data were processed

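The authors deposited raw counts per Ensembl gene, 1 column per library, made with bcl2fastq 2.20, STAR and HTSeq on GRCm38, per the submitters' processing notes; STAR and HTSeq versions, and whether counting used strand, are not given in sources used here. Libraries were TruSeq Stranded RNA, paired end, from pellets that passed a 20% Percoll step, per the labels' protocols. Symbols matched 48435 of 48795 IDs (GENCODE, GRCm38). Counts were tested with edgeR 4.0.16 (TMM, filterByExpr by group, robust quasi-likelihood F-test, 4 groups and sex, all 34 libraries, Benjamini-Hochberg over 19565 genes, threshold 0.05), and DESeq2 1.42.0 was an alternative; the fits were checked on simulated counts. R was 4.3.3. CPM is TMM-scaled, RPKM divides it by exon length, and ± after a log2 fold change is the standard error.

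The members and gene lists were chosen with earlier results of these data known. Named genes are, per comparison and complex, up to 4 that passed or else the 2 of lowest p, all isoform pairs and complex II genes, up to 4 per other list, and others given with values. Same-numbered libraries come from the same animal: their deviations from the group means correlated at a median of 0.501 (0.00976 to 0.761, 16 of 17 mice over 0.1), so the mouse was fitted as a block. Of the 86 members, 30 have exons that overlap another gene. Other alternatives were median-ratio scaling, no low-count filter, a length-trend offset, the spacer share as covariate, spacer sets, sexes, and leaving out cKO-131, wt-150 or, added after seeing the data, wt-139. Depth was 35732193 to 77632944 counts, so counting error is small above 10 CPM. Without the block, p-values measure the spread between libraries, with the 2 libraries of a mouse taken as independent. With the block, they measure how the side difference varied between mice. Some genes of the other lists are not reported here.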

Additional observations from a re-analysis of the deposited data

Results flagged for a closer look

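A value is listed here where the highest or lowest sample of a group lay far from all others, by Dixon's 95% criterion, which chance meets in about 1 of 20 groups; 5 of 98 groups of values did. In mouse wt-139 the log2 ratio of injured to naive was 0.15 for the complex I sum, where the next wt mouse had -0.03. It was 0.35 for the complex IV sum, where the next had 0.09, and 0.18 for the whole nuclear sum, where the next had 0.02. In cKO naive libraries, mouse cKO-131 had 18.6 CPM of Ndufs3, where the next had 22.8 CPM, and 464 CPM of complex III genes, where the next had 541 CPM. This mouse also had less Avil, at 83.4 to 88.8 CPM, than the other Cre-positive mice, at 432 to 555 CPM.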

How the results depend on the processing

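No called value changed sign. Medians over the members moved by less than the spread between mice, though the median difference of effects was 0.01 without wt-139 and -0.02 with it. In wt mice, 6 members passed. The count was 15 with the replicate block, 9 in low-share mice, 1 in high-share mice, 0 in females and 0 in males alone. All 9 in low-share mice fell. In settings added after seeing the data, the block with a length-trend offset gave 28, and the block gave 10 in low-share and 4 in high-share mice. Of the 28, Atp5d, Atp5l, Cox5a and Sdhb rose and the others fell. The block without cKO-131, wt-150 or wt-139 gave 15, 16 and 18, and the last of these did not hold Atp5l. In cKO mice, 0 passed, against 1 with the block, 3 with block and length offset, and 1 (Sdha, not Ndufb3) and 2 with the block without cKO-131 or wt-139. With the block but without wt-150, or within either spacer set, no member passed in cKO mice. Between genotypes on the injured side, the length offset gave 1 in place of 0. Shares of all genes passing are given here only for the main fit and for the block on all mice. The counts of the other settings thus cannot be set against all genes. The causes were not tested. Of the 6 wt calls, 6 were shared with the block and DESeq2 fits, 3 with the low-share mice (Ndufb3, Ndufs3 and Sdha) and 1 with the high-share mice (Cox4i2). In low-share and high-share mice the log2 fold changes were -0.38 and -0.27 for Ndufb3, -0.26 and -0.16 for Ndufs3, -0.21 and -0.18 for Sdha, -0.73 and -0.95 for Cox4i2, 0.21 and 0.23 for Atp5d, and 0.26 and 0.25 for Atp5l. The complex IV and V leans in wt mice turned with settings: 11 of 14 complex IV genes were positive, against 5 of 14 with the length offset. Genes below 1 CPM rest on few counts, and depth limits what can be seen there.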
